A study of Mus musculus with 6 samples.

Results

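The Hox genes encode homeodomain transcription factors and lie in 4 clusters, *Hoxa* to *Hoxd*, on mouse chromosomes 6, 11, 15 and 2. Genes were taken as members when their symbol was Hoxa, Hoxb, Hoxc or Hoxd followed by digits only, which gave 39 of the 24982 genes listed. They comprised 11 *Hoxa*, 10 *Hoxb*, 9 *Hoxc* and 9 *Hoxd* genes. The study compared C57BL/6 mouse keratinocyte lines from neonatal skin by RNA-seq of poly(A) RNA. The KSFM-Ca2+ cells had been derived and kept in keratinocyte serum-free medium of low calcium content, and the DKSFM cells were descendants of these cells that had been adapted to a defined medium with more calcium, neither with any further treatment. Each line had 3 replicate libraries. The adaptation passed through the few cells that survived the change of medium, so that medium and selection cannot be told apart between the lines. Whether the replicates were separate cultures is not stated, and the p-values therefore measure only the spread between these libraries. The word "combined" marks the data of KSFM-Ca2+ replicate 3 and of all 3 DKSFM replicates without an explanation.

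Each gene was measured as read coverage averaged over its bases and rounded to 0.1, which allows levels to be compared between genes of different length. Summed over all genes, coverage was 1601676, 1238411 and 1057750 in KSFM-Ca2+ replicates 1 to 3. In DKSFM replicates 1 to 3 it was 1174348, 1239438 and 1170675. Values called listed are the deposited ones, not scaled for depth, so that KSFM-Ca2+ replicate 1 tends to have the highest. Values called normalized were scaled between libraries and are given as mean ± SD (n = 3). The differences are log2 fold changes of DKSFM over KSFM-Ca2+, taken on log2(normalized coverage + 0.1) and tested with limma, with Benjamini-Hochberg adjustment over 12409 tested genes. A gene was called at an adjusted p under 0.01 with a change of at least 2-fold.

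Within a cluster, Hox genes are numbered by paralog group from the 3′ end, low numbers acting toward the head of the embryo and high numbers toward the tail. Adult skin cells keep part of the pattern of the body site from which they came. Hox proteins bind DNA with partner homeodomain proteins of the Pbx and Meis families, while Polycomb and Trithorax group proteins maintain the off and on states of the clusters.

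The keratinocyte label was checked against 8 basal keratinocyte genes, none of which was at 0 in any library. *Krt14*, a keratin of the basal layer, was the most abundant, its normalized coverage being 11987 ± 187 in the KSFM-Ca2+ cells and 29688 ± 1515 in the DKSFM cells. *Trp63*, the master regulator of stratified epithelia, had 405 ± 13.1 and 443 ± 12.6. Of the 8 genes, 3 were called higher in the DKSFM cells, where 13.2% of all tested genes were called higher. *Krt15*, another basal keratin, differed most, at 13.6 ± 3.71 and 392 ± 12.5. Without the 2-fold limit 6 were higher and 2 lower, where all tested genes had 35.2% and 37.2%. The 2 lower ones were *Itgb4* (log2 fold change -0.75) and *Cdh1* (-0.13). Of 12 fibroblast and mesenchyme genes, 8 were listed at 0 in every library, among them the defining *Col1a1*, *Col1a2*, *Col3a1*, *Pdgfrb*, *Lum* and *Dcn*. In bulk RNA, fewer cells that express a gene and less RNA of it per cell cannot be told apart.

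Most Hox genes had low or no listed coverage, and most of the tested ones were lower in the DKSFM cells. Of the 39 genes, 25 were listed above 0 in at least 1 library and 14 were at 0 in all 6. The number above 0 was 23, 22 and 22 in the KSFM-Ca2+ replicates and 18, 17 and 18 in the DKSFM replicates. The filter asked for 3 or more libraries with a normalized coverage of 0.5 or higher and was passed by 17 members. Of these, 9 were called lower in the DKSFM cells, where 10.6% of all tested genes were called lower. Among them were *Hoxa7*, *Hoxb2*, *Hoxb4*, *Hoxb5*, *Hoxb7*, *Hoxb8*, *Hoxc9* and *Hoxd8*. *Hoxa4* was the 1 member called higher, against 13.2% of tested genes. Without the 2-fold limit 13 members were lower (37.2% of tested genes) and 1 was higher (35.2%). Of the lower ones, *Hoxb9*, *Hoxa5* and *Hoxb5* were over an adjusted p of 0.01 in several of the alternative fits. *Hoxa2*, *Hoxa7*, *Hoxb2*, *Hoxb4*, *Hoxb7* and *Hoxb8* were over it from the combined libraries alone, where a lone KSFM-Ca2+ library was left. *Hoxb5*, *Hoxc9* and *Hoxd8* passed the filter through the KSFM-Ca2+ libraries alone and so had to be lower. Of the other 14 tested members, 6 were called lower and 1 higher, and their median change was -0.70 on the log2 scale, where that of all tested genes was -0.0042.

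**Figure D1:**
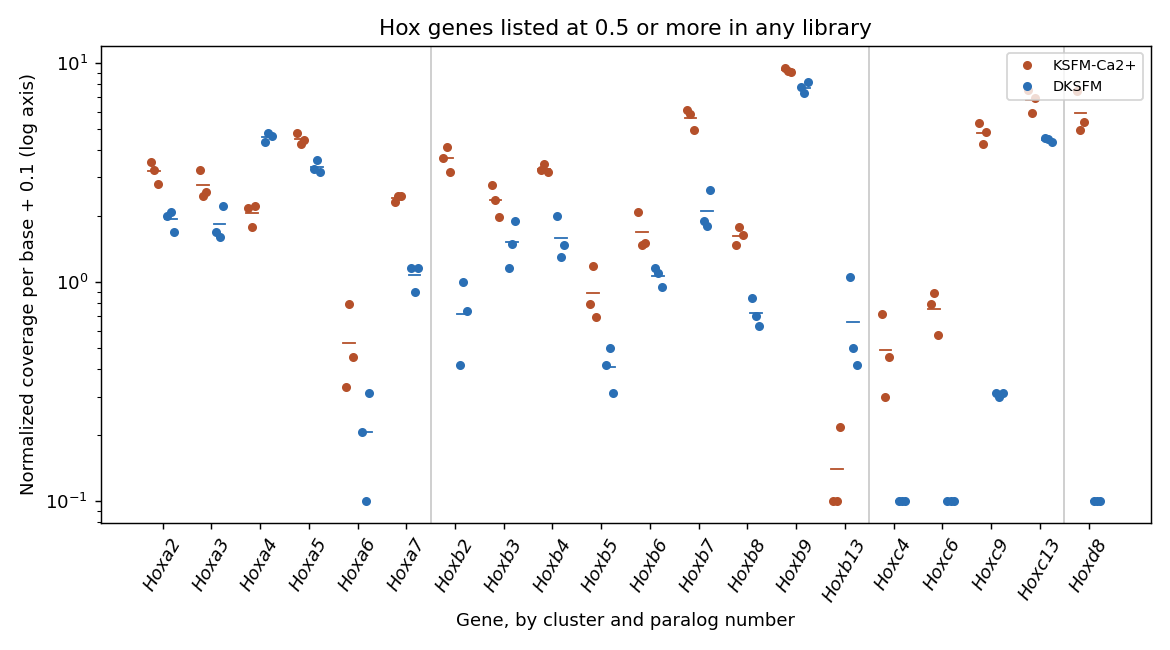
Normalized coverage plus 0.1 on a log axis for 20 Hox genes listed at 0.5 or more in any library, with 3 points per line and a short bar at the mean. *Hoxd8*, *Hoxc4* and *Hoxc6* sit on the floor of the axis in all DKSFM libraries.

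In the *Hoxa* cluster the non-coding gene *Hotairm1* was higher in the DKSFM cells, listed at 30.3, 25.9 and 25.5 in the KSFM-Ca2+ and at 54.0, 65.3 and 49.3 in the DKSFM replicates (log2 fold change 1.15, SE 0.11, adjusted p = 1.81e-05). The libraries were directional and aligned with a strand setting, but whether the deposited coverage used strand is not stated, so reads of genes that overlap on opposite strands may not have been told apart.

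*Hoxa4* (chr6:52189671-52191753), from the middle of the cluster, was listed at 2.7, 1.7 and 1.8 in the KSFM-Ca2+ and at 4.0, 4.7 and 4.3 in the DKSFM replicates. It was the only tested Hox gene with all DKSFM libraries above the KSFM-Ca2+ ones. Normalized coverage rose 2.30-fold, from 1.96 ± 0.242 to 4.50 ± 0.230 (log2 fold change 1.17, SE 0.12, adjusted p = 3.40e-05). The rise was under 2-fold with quantile normalization (log2 fold change 0.98) and with a pseudocount of 1 (0.90). Its *Hoxa3* and *Hoxa5* neighbours had the opposite sign. *Hoxa3* was listed at 4.1, 2.4 and 2.1 in the KSFM-Ca2+ and at 1.5, 1.5 and 2.0 in the DKSFM libraries, and its log2 fold change of -0.59 did not pass (adjusted p = 0.0124). *Hoxa5* was listed at 6.1, 4.2 and 3.7 against 3.0, 3.5 and 2.9 and was lower by less than 2-fold (log2 fold change -0.42, adjusted p = 0.00389). The adjusted p was 0.0111 to 0.0173 without KSFM-Ca2+ replicate 1 or 3 or DKSFM replicate 1 or 3. With a replicate block it was 0.0128, and from the combined libraries alone the log2 fold change was -0.41. The annotated span of *Hoxa3* runs across *Hoxa4*, *Hoxa5* and *Hoxa6* on the same strand, sharing no exon bases with them. On the opposite strand, *Gm29430* shares exon stretches of up to 255 bases with *Hoxa4* and 330 bases with *Hoxa3*. It was not among the genes listed, and its reads may not have been told apart from theirs.

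*Hoxa7* (chr6:52214491-52221854) was listed at 2.9, 2.4 and 2.0 in the KSFM-Ca2+ and at 1.0, 0.8 and 1.0 in the DKSFM libraries, without overlap. Its normalized coverage fell from 2.32 ± 0.0823 to 0.973 ± 0.151 (log2 fold change -1.18, SE 0.15, adjusted p = 0.000135), a change under 2-fold with a pseudocount of 0.5 (-0.94) and not called from the combined libraries alone, where it was as large (-1.20, adjusted p = 0.0139). *Hoxa2* was listed at 4.5, 3.2 and 2.3 against 1.8, 2.0 and 1.5 and was lower by less than 2-fold (log2 fold change -0.73, adjusted p = 0.00146). *Hoxa6* was close to the rounding step, at 0.3, 0.7 and 0.3 against 0.1, 0 and 0.2, and was not tested. The high-numbered *Hoxa9*, *Hoxa10*, *Hoxa11* and *Hoxa13* were listed at 0 to 0.1 in all 6 libraries.

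The *Hoxb* cluster had the most tested members, 8 of 10, with 9 above 0. *Hoxb9* (chr11:96271457-96276595) had the highest coverage of the cluster in both lines. It was listed at 12.3, 9.2 and 7.6 in the KSFM-Ca2+ and at 7.2, 7.2 and 7.6 in the DKSFM libraries, and its normalized coverage of 9.16 ± 0.241 and 7.62 ± 0.431 gave the smallest difference among tested members (log2 fold change -0.26, SE 0.07, adjusted p = 0.00806). The adjusted p was over 0.01 with relative log expression size factors (0.0112), without a filter (0.0115), with a replicate block (0.0200), from the combined libraries alone (0.112) and without any single library except DKSFM replicate 3 (0.0152 to 0.0297). *Hoxb7* (chr11:96286623-96290162) was listed at 7.8, 5.8 and 4.1 in the KSFM-Ca2+ and at 1.7, 1.7 and 2.4 in the DKSFM replicates. It fell 2.74-fold in normalized coverage (log2 fold change -1.42, SE 0.17, adjusted p = 6.82e-05), although not past the threshold from the combined libraries alone (-1.24, adjusted p = 0.0230).

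*Hoxb2* (chr11:96350525-96354012), with a role in hindbrain and facial nerve development, showed the largest drop of the cluster. It was listed at 4.7, 4.1 and 2.6 in the KSFM-Ca2+ and at 0.3, 0.9 and 0.6 in the DKSFM replicates. The lowest KSFM-Ca2+ value was still above the highest DKSFM value (log2 fold change -2.44, SE 0.30, adjusted p = 0.000103; from the combined libraries alone, -2.22 with adjusted p = 0.0314). *Hoxb3os*, a non-coding gene on the opposite strand, shares exon stretches of up to 953 bases with *Hoxb2* and 1153 bases with *Hoxb3*. It was listed at 2.5, 2.4 and 1.5 in the KSFM-Ca2+ and at 0.5, 0.6 and 0.2 in the DKSFM libraries and was lower too (log2 fold change -2.03, SE 0.31, adjusted p = 0.000406). Reads of *Hoxb2*, *Hoxb3* and *Hoxb3os* in the shared bases may not have been told apart. *Hoxb3* itself was listed at 3.5, 2.3 and 1.6 against 1.0, 1.4 and 1.7, and did not pass (log2 fold change -0.66, adjusted p = 0.0192).

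Between these genes, *Hoxb4* (chr11:96318267-96321638) was listed at 4.1, 3.4 and 2.6 in the KSFM-Ca2+ and at 1.8, 1.2 and 1.3 in the DKSFM replicates (log2 fold change -1.07, SE 0.17, adjusted p = 0.000516). Its call was lost without DKSFM replicate 2 (log2 fold change -0.92), with a pseudocount of 0.5 (-0.90) and from the combined libraries alone (-1.01, adjusted p = 0.0477). *Hoxb5* was listed at 0.9, 1.1 and 0.5 against 0.3, 0.4 and 0.2, and its difference was the least firm (log2 fold change -1.10, SE 0.30, adjusted p = 0.00861). Leaving out any library except KSFM-Ca2+ replicate 3 ended its call. The log2 fold change was -1.16 (adjusted p = 0.0219) without KSFM-Ca2+ replicate 1 and -0.87 (0.0405) without KSFM-Ca2+ replicate 2. Without DKSFM replicate 1, 2 or 3 it was -1.12 (0.0223), -1.25 (0.0105) or -0.92 (0.0266), so that the difference was as large in some of these fits. With a pseudocount of 0.5 its log2 fold change was -0.66, and from the combined libraries alone it was -0.77 (adjusted p = 0.115). *Hoxb6* was listed at 2.6, 1.4 and 1.2 against 1.0, 1.0 and 0.8 and did not pass (log2 fold change -0.65, adjusted p = 0.0119). *Hoxb13*, at the far end of the cluster, was listed at 0, 0 and 0.1 in the KSFM-Ca2+ and at 0.9, 0.4 and 0.3 in the DKSFM libraries. It lay under the filter, and when genes were tested without a filter it was higher in the DKSFM cells (log2 fold change 2.22, adjusted p = 0.00317). That fold is coarse and depends on the pseudocount, since the KSFM-Ca2+ values were 0 or 0.1. *Hoxa4* and *Hoxb13* were then the 2 members called higher. *Hoxb1* was listed at 0 throughout.

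*Hoxb8* (chr11:96281905-96285315) was listed at 1.8, 1.7 and 1.3 in the KSFM-Ca2+ and at 0.7, 0.6 and 0.5 in the DKSFM libraries, with no overlap. The log2 fold change was -1.18 (SE 0.18, adjusted p = 0.000389), under 2-fold with a pseudocount of 0.5 (-0.86) and not called from the combined libraries alone, where it was as large (-1.18, adjusted p = 0.0161). Its promoter sequence, from 250 bases before to 50 after the start of the gene, is shown with that of *Hoxa2* because both members were lower and both hold the letters TGATNNAT on the opposite strand, marked in capitals. This motif is bound by Hox and Pbx proteins together, and a match of letters is not a measured binding site. Both sequences are from RefSeq, build GRCm38.p6. The *Hoxb8* window is chr11:96281655-96281954 on the plus strand, with the match at base 240 of the window, and the *Hoxa2* window is chr6:52164782-52165081 on the minus strand, with the match at base 140.
*Hoxb8* promoter: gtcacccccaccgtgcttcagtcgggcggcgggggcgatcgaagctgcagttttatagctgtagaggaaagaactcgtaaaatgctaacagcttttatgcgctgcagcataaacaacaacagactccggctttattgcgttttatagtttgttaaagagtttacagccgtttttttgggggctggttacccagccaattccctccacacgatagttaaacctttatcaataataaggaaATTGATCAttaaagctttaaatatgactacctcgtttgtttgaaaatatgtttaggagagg
*Hoxa2* promoter: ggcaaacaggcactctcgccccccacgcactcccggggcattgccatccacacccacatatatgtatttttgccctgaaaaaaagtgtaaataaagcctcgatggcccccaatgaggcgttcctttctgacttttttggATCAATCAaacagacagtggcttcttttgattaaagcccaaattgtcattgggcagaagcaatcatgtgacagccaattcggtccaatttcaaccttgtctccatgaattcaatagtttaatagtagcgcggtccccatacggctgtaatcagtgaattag
RefSeq promoters were matched for 22 Hox genes in 24 windows, and TGATNNAT occurred on either strand in 4 of the 24 (16.7%), those of *Hoxa2*, *Hoxb1*, *Hoxb8* and 1 of *Hoxd11*. Over all 32851 promoters of the same length the share was 8.85%. The shorter homeodomain letters TAATTA occurred in 2 of the 24 windows (8.33%), both of *Hoxd11*, against 5.29% of all promoters. The median Hox window held 57.7% G and C, where the median of all windows was 52.7%.

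The Hox clusters also carry microRNA genes, among them those of the miR-196 family, whose mature strands are known to pair with Hox transcripts. The RefSeq mature sequences (GRCm38.p6) are shown 5′ to 3′ with the seed, bases 2 to 8, in capitals. miR-196a-5p comes from the *Hoxb* cluster at chr11:96265187-96265208 and from the *Hoxc* cluster, and miR-196b-5p from the *Hoxa* cluster at chr6:52230129-52230150. Both have the seed AGGUAGU.
miR-196a-5p: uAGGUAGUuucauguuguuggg
miR-196b-5p: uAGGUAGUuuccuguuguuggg
The 3′ untranslated regions of the Hox transcripts in GENCODE M21 were searched for the 22-base window with the most Watson-Crick pairs to miR-196a-5p. Capitals mark the bases that pair. The *Hoxb8* window had 21 pairs and 1 G-U pair, the *Hoxd8* window 15 pairs, and the *Hoxa7* region held 4 copies of ACTACCT, the exact match to the seed. Neither the *Hoxb8* nor the *Hoxd8* region held such a copy, and 9 of the 39 Hox genes searched did. In the other 37 genes the best window had 9 to 14 pairs, with 14 in 9 genes, among them *Hoxa4*, which was called higher and held 1 copy of ACTACCT.
*Hoxb8* window: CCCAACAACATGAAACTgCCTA
*Hoxd8* window: CtCAACAACATaAActTcCtaA
Coverage of the hairpin gene *Mir196a-1*, which starts just past the end of the non-coding gene *Gm53*, was listed at 15.7, 12.8 and 5.7 in the KSFM-Ca2+ and at 20.2, 18.0 and 19.8 in the DKSFM replicates. The DKSFM libraries were all above the KSFM-Ca2+ ones, by less than 2-fold (log2 fold change 0.99, SE 0.22, adjusted p = 0.00330). *Gm53* was listed at 26.1, 16.2 and 12.2 against 21.5, 22.7 and 18.9 and did not pass (adjusted p = 0.0148). Coverage of a hairpin gene in poly(A) libraries is not a level of the mature microRNA, and its part in the Hox differences was not tested. *Mir10a*, *Mir10b*, *Mir196a-2*, *Mir196b* and *Mir615* were listed at 0.

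In the *Hoxc* cluster, *Hoxc13* and *Hoxc9* were the 2 members tested. *Hoxc13* (chr15:102921103-102928814), which is needed for hair shaft and nail formation and for hair keratin genes, was listed at 9.7, 5.9 and 5.8 in the KSFM-Ca2+ and at 4.2, 4.4 and 4.0 in the DKSFM libraries. Its normalized coverage of 6.70 ± 0.811 and 4.36 ± 0.112 differed by less than 2-fold (log2 fold change -0.60, SE 0.10, adjusted p = 0.000717). *Hoxc9* (chr15:102976439-102985099), a gene of the thoracic region in embryos, was listed at 6.8, 4.2 and 4.0 in the KSFM-Ca2+ libraries and at 0.2 in all 3 DKSFM libraries. It was close to 0 in the DKSFM cells, and 0.2 stands only 2 rounding steps above 0, so the log2 fold change of -3.95 (SE 0.16, adjusted p = 1.15e-07) is coarse. *Hoxc6* was listed at 0.9, 0.8 and 0.4 in the KSFM-Ca2+ libraries and *Hoxc4* at 0.8, 0.2 and 0.3. Both were at 0 in every DKSFM library and lay under the filter, and both were called lower when genes were tested without a filter (adjusted p = 2.53e-05 and 0.000753). *Hoxc5* was listed at 0.2, 0 and 0.1 in the KSFM-Ca2+ and at 0 in the DKSFM libraries, and *Hoxc8*, *Hoxc10*, *Hoxc11* and *Hoxc12* at 0 to 0.1 in all 6. The annotated span of *Hoxc5* crosses *Hoxc6*, *Hoxc8*, *Hoxc9* and *Hoxc10*, and it shares 166 exon bases with *Hoxc10* alone.

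A single gene of the *Hoxd* cluster was listed above 0. *Hoxd8* (chr2:74704615-74707933) was listed at 9.6, 4.9 and 4.5 in the KSFM-Ca2+ libraries and at 0 in all 3 DKSFM libraries. Its normalized coverage in the KSFM-Ca2+ cells, 5.83 ± 1.34, lay above 24.3% of tested genes, and no fold is given against values of 0 (adjusted p = 8.32e-08). The other 8 genes, *Hoxd1*, *Hoxd3*, *Hoxd4*, *Hoxd9*, *Hoxd10*, *Hoxd11*, *Hoxd12* and *Hoxd13*, were at 0 in all 6 libraries. The RefSeq promoter of *Hoxd8* (GRCm38.p6, chr2:74704365-74704664, plus strand), shown because this tested member was listed at 0 throughout the DKSFM libraries, holds neither TGATNNAT nor TAATTA and is therefore printed without capitals.
*Hoxd8* promoter: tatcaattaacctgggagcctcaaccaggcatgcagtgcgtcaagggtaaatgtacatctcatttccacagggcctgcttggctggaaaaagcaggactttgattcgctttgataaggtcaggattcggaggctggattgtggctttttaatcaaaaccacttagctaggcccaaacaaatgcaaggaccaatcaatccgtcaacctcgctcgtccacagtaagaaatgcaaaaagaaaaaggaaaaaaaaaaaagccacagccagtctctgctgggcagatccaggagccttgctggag

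**Figure D2:**
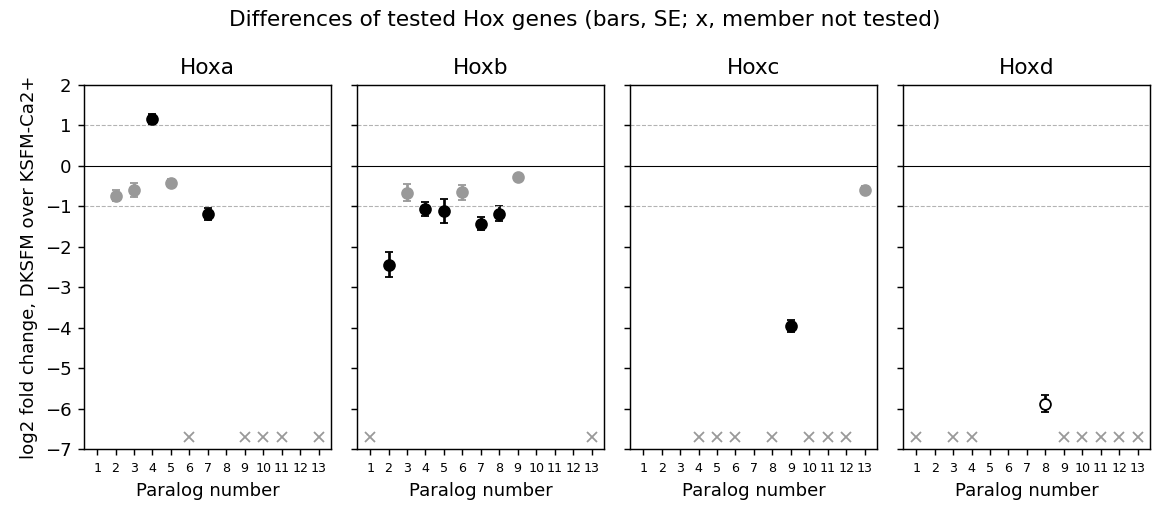
Log2 fold change of DKSFM over KSFM-Ca2+ (bars, SE) for 16 tested Hox genes by paralog number, with called genes in black, other tested genes in grey, dashed lines at 2-fold and crosses for members not tested. Of these, *Hoxa4* alone lies above 0, at 1.17, and the open point of *Hoxd8* at the lower right depends on the pseudocount because its DKSFM libraries were listed at 0.

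Sums of normalized coverage give the level of each cluster. Over all 39 genes the sum was 96.2, 86.8 and 94.6 in KSFM-Ca2+ replicates 1 to 3 and 48.1, 45.6 and 48.7 in DKSFM replicates 1 to 3, so that the lines did not overlap. The mean sum was 1.95 times as high in the KSFM-Ca2+ cells. The *Hoxa* cluster had 46.5 ± 4.60 in the KSFM-Ca2+ and 27.3 ± 0.914 in the DKSFM cells. *Hoxb* had 27.7 ± 1.91 and 15.6 ± 0.782, *Hoxc* 12.6 ± 1.56 and 4.57 ± 0.111, and *Hoxd* 5.83 ± 1.34 and 0. The order of the clusters by level was the same in both lines, and their differences from each other were not tested. The sums are weighted toward their most abundant members, and the order of the clusters depends on these.

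**Figure D3:**
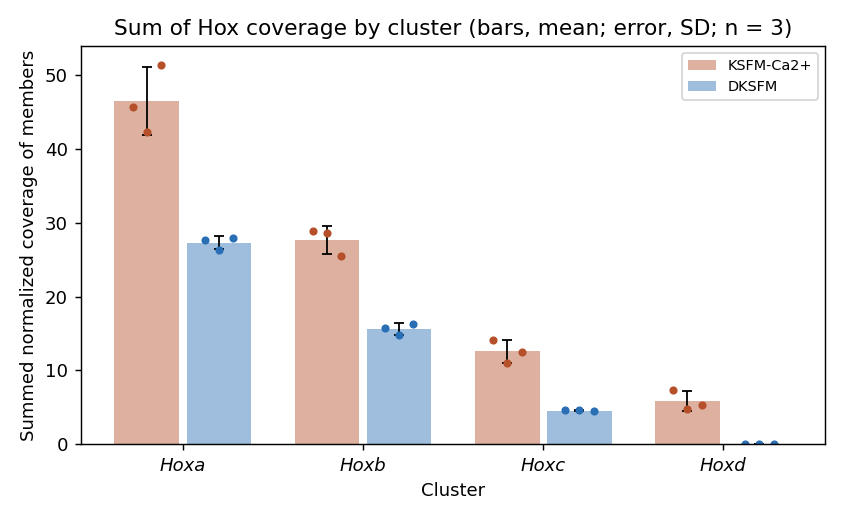
Normalized coverage summed over the members of each Hox cluster, as the mean of 3 libraries per line with SD error bars and 1 point per library. In each cluster all 3 KSFM-Ca2+ libraries lie above all 3 DKSFM libraries, and the *Hoxd* sum is 0 in the DKSFM libraries.

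By paralog number, members 1 to 3 summed to 43.2 ± 3.78 in the KSFM-Ca2+ and 20.5 ± 0.967 in the DKSFM cells. Members 4 to 8 had 28.7 ± 2.24 and 14.2 ± 0.310, and members 9 to 13 had 20.7 ± 1.48 and 12.7 ± 0.542. Of the genes with numbers 10, 11 and 12, none exceeded 0.1 in any library. In paralog group 4, where *Hoxa4* was higher and *Hoxb4* lower in the DKSFM cells, the sums were close at 5.53 ± 0.294 and 5.99 ± 0.141. In group 8 they were 7.36 ± 1.20 and 0.624 ± 0.109, with *Hoxd8* listed at 0 in the DKSFM libraries and *Hoxb8* lower. These sums were not tested, and they too are weighted toward their most abundant members.

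Of 9 genes for TALE homeodomain cofactors, the DNA-binding partners of Hox proteins, 8 were tested and 1 was called, higher in the DKSFM cells, a share close to the 13.2% of all tested genes. Without the 2-fold limit 4 were higher and 1 lower (35.2% and 37.2% of all tested genes), and the median change was 0.70 on the log2 scale. The called gene was *Meis1*, listed at 15.0, 9.7 and 8.4 in the KSFM-Ca2+ and at 20.9, 21.2 and 20.0 in the DKSFM replicates (log2 fold change 1.06, SE 0.08, adjusted p = 3.52e-06). Of 8 genes for other regulators of Hox proteins, 1 was called higher, *Pbxip1*, which encodes a Pbx-binding protein (0.390 ± 0.196 and 2.36 ± 0.407, log2 fold change 2.40).

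**Figure D4:**
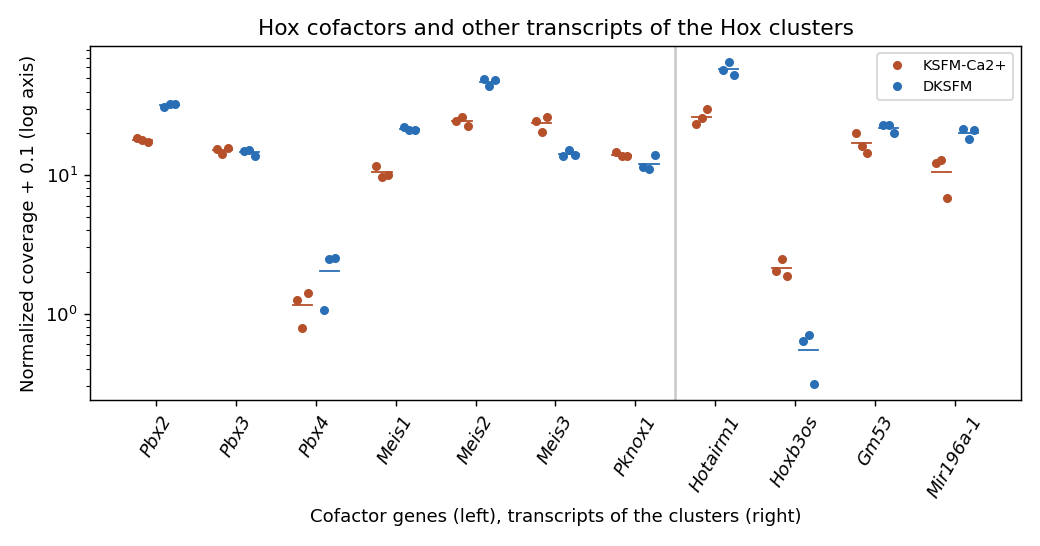
Normalized coverage plus 0.1 on a log axis for 7 tested cofactor genes and the 4 other tested transcripts of the Hox clusters, with 3 points per line and a short bar at the mean. *Meis1* and *Hotairm1* lie higher and *Hoxb3os* lower in the DKSFM libraries, each with a call.

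Of 20 listed other transcripts of the clusters, 12 were at 0 in all libraries and 4 were tested, with *Hotairm1* called higher and *Hoxb3os* lower. Over all tested genes 13.2% were called higher and 10.6% lower, and the counts of these lists are given beside those shares. Regulators known to act on Hox clusters in embryos numbered 18, of which 10 were tested and 3 were called higher in the DKSFM cells. They included *Egr2* (log2 fold change 2.64) and *Cyp26b1*, which degrades retinoic acid (1.90). *Egr2*, listed at 0.2, 0.3 and 0.2 in the KSFM-Ca2+ libraries, passed the filter through the DKSFM libraries alone and so had to be higher, and its fold is coarse. The caudal genes *Cdx1*, *Cdx2* and *Cdx4* were not among the tested genes. Of 24 Trithorax and Polycomb group genes, all tested, *Jarid2* (1.39) and *Cbx2* (1.38) were the 2 called, both higher, and without the 2-fold limit 7 were lower and 7 higher, no more than the shares of all tested genes (37.2% and 35.2%). Among 24 genes widely described as Hox targets, 15 were tested, 6 were called higher and 4 lower, with the largest changes in *Epha7* (4.23), *Plaur* (-2.95), *Cdkn2a* (2.32), *Plau* (-2.08), *Ncam1* (-1.96) and *Gli1* (1.67). *Epha7* and *Gli1*, listed at 0.1 to 0.3 in the KSFM-Ca2+ libraries, likewise had to be higher by the filter. Of 28 other homeobox and T-box genes, 17 were tested, 5 were called higher and 4 lower. *Barx2* was at 0 in all KSFM-Ca2+ libraries and had 94.0 ± 3.62 in the DKSFM cells, and others called were *Dlx3* (2.89), *Tbx15* (-1.83) and *Pitx1* (1.63). *Barx2* and *Dlx3* passed the filter through the DKSFM libraries alone.

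The genes around the clusters had medians closer to 0 than the tested Hox genes, a difference that was not itself tested. Those Hox genes include *Hoxb5*, *Hoxc9* and *Hoxd8*, which had to be lower by the filter. The other 14 tested Hox genes had a median log2 fold change of -0.70. Within 5 Mb of *Hoxa*, the median log2 fold change of the 54 other tested genes was 0.20, with 6 called lower and 10 higher (11.1% and 18.5%, where all tested genes had 10.6% and 13.2%). The median was -0.07 over 143 genes around *Hoxb*, with 14 called lower and 30 higher. It was 0.05 over 97 genes around *Hoxc*, with 6 lower and 16 higher, and 0.0031 over 45 genes around *Hoxd*, with 1 lower and 4 higher. Over the whole of chromosome 6 the median of the tested genes outside *Hoxa* was 0.31. Of 19 listed genes chosen as neighbours, 17 were tested, *Skap1* was called lower and *Calcoco1* higher. *Skap1*, next to *Hoxb1*, was listed at 2.6, 1.9 and 1.8 in the KSFM-Ca2+ and at 0, 0 and 0.1 in the DKSFM replicates, passing the filter through the KSFM-Ca2+ libraries alone, and *Calcoco1*, on the *Hoxc13* side of its cluster, had a normalized coverage of 7.96 ± 0.408 and 28.5 ± 0.910.

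**Figure D5:**
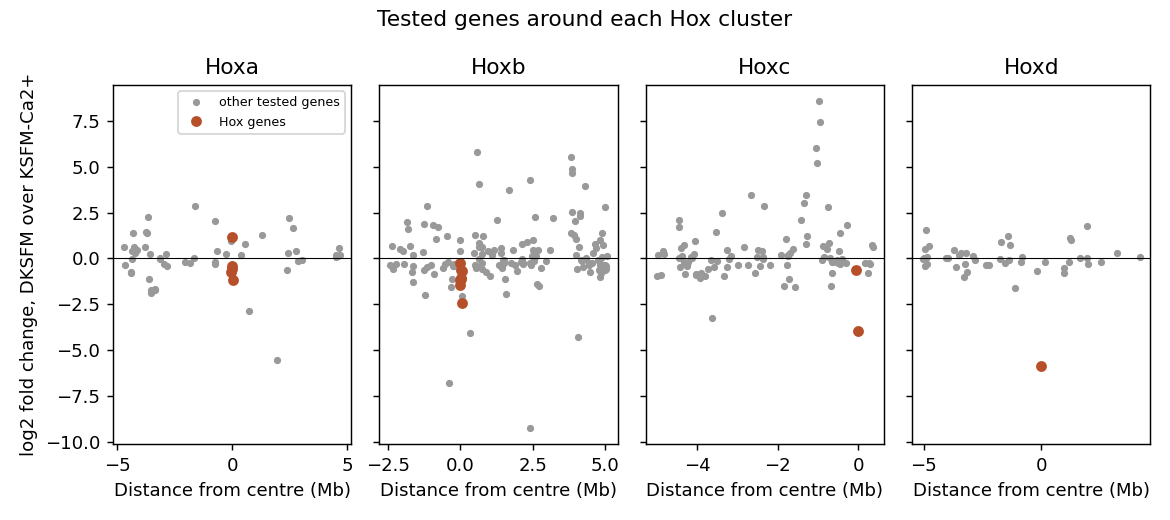
Log2 fold change of tested genes against the distance of their midpoint from the centre of each Hox cluster, with Hox genes in brown and all others in grey. The Hox genes lie mostly below 0, while the other genes have medians between -0.07 and 0.20. *Hoxb5*, *Hoxc9* and *Hoxd8* had to be lower by the filter.

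Markers of other cell types were set beside the Hox levels. The 12 fibroblast and mesenchyme genes summed to a normalized coverage of 25.7, 26.1 and 26.3 in the KSFM-Ca2+ and 14.0, 15.3 and 14.1 in the DKSFM replicates, lower in the DKSFM cells. *Twist1* was the most abundant, at 17.6 ± 0.557 and 12.1 ± 0.825, and *Twist2* was listed at 10.0, 7.4 and 6.0 against 0.1, 0 and 0, passing the filter through the KSFM-Ca2+ libraries alone. *Pdgfra*, the other tested gene of this list, was higher by less than 2-fold, at 1.11 ± 0.206 and 2.22 ± 0.119 (log2 fold change 0.95, adjusted p = 0.000757). *Col1a1*, *Col1a2*, *Col3a1* and *Dcn* stood at 0 in both lines. Of 7 melanocyte genes 1 was tested, *Mitf*, which was called higher (log2 fold change 2.31), with *Dct*, *Tyr* and *Kit* at 0. Of 6 endothelial genes 1 was tested, *Pecam1*, also higher (1.41), with *Cdh5*, *Tie1* and *Emcn* at 0. Of 6 immune genes *Cd68* alone was tested and was higher by less than 2-fold (0.59), with *Cd3e* and *Adgre1* at 0. The 5 muscle genes lay under the filter. Of 7 Merkel and Schwann cell genes 3 were tested, and *Sox2* was higher by less than 2-fold (0.95). The part of these genes in the Hox differences was not tested.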

How the data were processed

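RNA-seq libraries of 3 KSFM-Ca2+ and 3 DKSFM samples were grouped by their labels. The deposited signal of a gene is its read coverage averaged over bases, rounded to 0.1 and not scaled to library size. Tools named by the submitters are bcl2fastq, STAR and the authors' DESeq2, with the build mm10. The paper's supplement adds Salmon for quantification and the BaseSpace apps RNA-Seq Alignment and RNA-Seq Differential Expression. How the deposited coverage was computed is not stated. Since coverage is not a count, no count model was fitted, counting intervals are left out, and rounding to 0.1 limits low values. Coverage was scaled by a trimmed mean of M values without weights (trims of 30% and 5%, factors 0.992 to 1.01). Genes with at least 0.5 in at least 3 libraries were fitted with limma 3.58.1 in R 4.3.3, on log2(normalized coverage + 0.1), with a mean-variance trend. Calls needed an adjusted p under 0.01 and a 2-fold change. The procedure was tested on simulated data. Positions and exons came from GENCODE M21 and sequences from RefSeq. Python 3.11.15 and matplotlib 3.10.9 were used.

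The Hox members and the gene lists were chosen with earlier results of these data known. By the naming rule, members listed at 0.5 or more in any library are given in every library and the rest by range, and from other lists up to 6 called genes are named by size of change. A few genes are not reported here. Alternatives were other scalings, filters, pseudocounts and thresholds, a fit without the trend, a replicate block, each library left out, and the combined libraries only, where the lone KSFM-Ca2+ library was assumed to vary like the DKSFM libraries.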

Additional observations from a re-analysis of the deposited data

How the results depend on the processing

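The lower Hox calls were the same 9 genes with relative log expression size factors, library totals only, no intensity trend and an adjusted p of 0.05. All 9 were kept and *Hoxc6* was added with quantile normalization (10 lower), and *Hoxc6* and *Hoxc4* were added without a filter (11 lower). No direction of a tested Hox gene reversed under any alternative tried. In the filtered fits *Hoxb5*, *Hoxc9* and *Hoxd8* had to be lower, so their unchanged direction is no test. Of 268 values of single Hox genes under these alternatives, 245 kept their status as called or not called and 23 lost a call. Members under the limit on fold change count as kept even where their adjusted p crossed its threshold. With a replicate block this held for *Hoxb9* (adjusted p = 0.0200) and *Hoxa5* (0.0128). The count of lower Hox genes was 5 with the filter on every library, where *Hoxb2*, *Hoxb5*, *Hoxc9* and *Hoxd8* were not tested, 5 with a pseudocount of 0.5, 5 with a pseudocount of 1, and 3 with the combined libraries only, where fewer samples were used. The count of higher Hox genes was 0 with quantile normalization, 0 with a pseudocount of 1 and 2 without a filter. Over all tested genes 1028 were called higher with the filter on every library, and without the limit on fold change 4371 were higher and 4622 lower. Each library left out in turn gave 8 to 9 lower and 1 higher Hox gene, in some fits with *Hoxc6* among the lower. Of the 9 main calls, 8 were kept in each of these fits except without DKSFM replicate 2. There 7 were kept, and *Hoxb4* and *Hoxb5* were lost. The filter of these fits asked for 2 libraries, and *Hoxc6*, at 0 in every DKSFM library, could enter only as lower.

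Same-numbered replicates did not deviate together (correlations -0.0050, 0.024 and -0.0062 across genes). No pairing by number was seen, although so few libraries cannot exclude it. With a replicate block 9 Hox genes were lower and 1 higher, and over all genes 1637 were higher and 1312 lower. Low levels limit the precision, since most Hox genes stood within a few coverage units of 0, and the 0.1 step makes values such as 0.2 coarse. With no counts a gene listed at 0 may still have had reads.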
